A study of Mus musculus with 8 samples.

Results

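The mRNAs examined here are those of 10 circadian clock genes, Per1, Per2, Per3, Cry1, Cry2, Clock, Nr1d1, Nr1d2, Dbp and Tef, chosen by gene symbol among the 23183 genes listed in each count file, in which all 10 were found. They were measured by bulk mRNA-seq in 8 libraries of cultured C57BL/6 mouse lung ILC2s (group 2 innate lymphoid cells, the tissue-resident lymphocytes that make type 2 cytokines). In 4 libraries the cells had been treated with 5 µM Yoda1, a small-molecule opener of the mechanosensitive cation channel Piezo1, and in the other 4 with 0.1% DMSO, the vehicle, and the treatment lasted 3 h. All cells came from lungs of wild-type mice, 6 to 10 weeks old and of both sexes, that had received IL-33, and were enriched with a pan-ILC kit and CD45 microbeads and grown with IL-2, IL-7 and IL-33 at 10 ng/mL each, so these exposures were shared by both groups. The comparison asks which mRNAs differ after chemical opening of Piezo1 in these cells. It holds 1 time point, no Piezo1-deficient cells and no record of the time of day, so neither a rhythm nor its phase can be read from it.

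The clock is a transcriptional feedback loop that runs in nearly every cell. CLOCK pairs with BMAL1 (encoded by Arntl) and activates genes that carry E-box sequences, among them those for PER and CRY proteins, which return to the nucleus and inhibit the CLOCK-BMAL1 pair. The same pair drives Nr1d1 and Nr1d2, whose products REV-ERBα and REV-ERBβ are haem-binding nuclear receptors that repress Arntl in competition with the ROR receptors, one of which, RORα, is needed for ILC2 development. DBP and TEF are leucine zipper activators that pass the rhythm on to genes with D-box sequences. Per1 is also known as a fast target of calcium and cAMP signalling through CREB, the route by which light resets the central clock.

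Of the 10 clock genes, 3 rose with Yoda1 and 0 fell. Nr1d1 was 1.49-fold, Per1 1.42-fold and Cry1 1.19-fold higher than with DMSO, and for each of them all 4 Yoda1 libraries lay above all 4 DMSO libraries. Nr1d2 was 1.10-fold higher without overlap between the groups and did not pass the adjusted threshold, and Per2, Per3, Cry2, Clock, Dbp and Tef overlapped between the groups. A gene was called at an adjusted p under 0.05 in edgeR's quasi-likelihood fit over the 12239 genes with enough counts, in which 10.9% of genes were called, 6.04% as higher and 4.84% as lower. Groups that did not overlap were found for 4 of the 10 clock genes, all higher, against 8.44% of all genes tested in that direction and 7.05% in the lower one. The median log2 fold change was 0.085 over the 10 genes, with 9 of 10 above 0. It was -0.0053 over all 12239 genes tested, with 5925 of them above 0. The split of all calls was 739 higher to 592 lower, and it moved to 505 and 958 with upper-quartile factors and to 553 and 809 with library totals alone, while Per1, Cry1 and Nr1d1 were called higher, and were the only clock genes called, under both scalings. By unadjusted p, Per1 ranked at position 22, Nr1d1 at 174 and Cry1 at 251 of the 12239 genes.

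**Figure D1:**
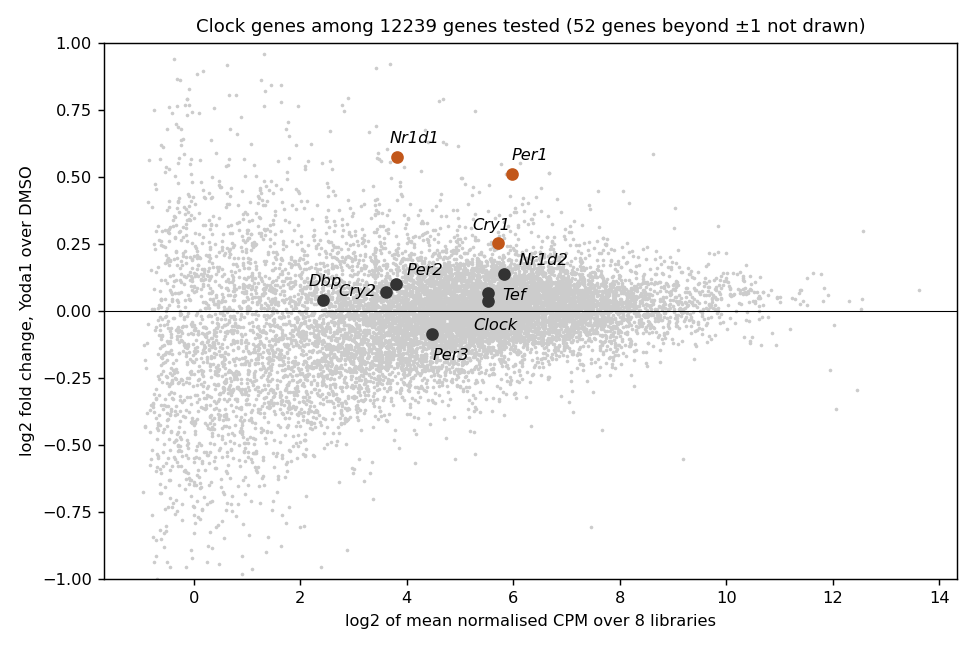
The log2 fold change of Yoda1 over DMSO (vertical axis) is plotted against the log2 mean normalised CPM over 8 libraries (horizontal axis) for all genes tested (grey points, 52 of them beyond the axis and not drawn) and for the 10 clock genes (large points, orange where called higher). Nr1d1 (0.57), Per1 (0.51) and Cry1 (0.25) stand above the other 7, which lie between -0.088 and 0.14.

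Library totals ran from 12438009 to 19534653 counts over both groups (p = 0.971 for their difference, two-sided exact permutation test), and 1 count was worth 0.0514 to 0.0807 normalised CPM (counts scaled to a common library size by TMM). The clock genes were covered by 57 to 1436 counts per library. The smallest two-sided exact p that 4 libraries against 4 allow is 0.0286. Whether libraries of a group represent separate mice or cultures is not given in the sources used here, so the errors cover only the spread between these libraries, which may be technical. In bulk RNA a change in the mix of cells and a change per cell cannot be told apart. The 12 ILC2 markers examined, from Gata3 to Il13, summed to 17700 to 18200 CPM with DMSO and 19700 to 20100 with Yoda1, and 6 of them were called (against 10.9% of all genes), Il13, Il5, Il1rl1, Ptprc and Thy1 higher and Icos lower. Il13 alone went from 5430 ± 187 to 6670 ± 114 CPM, while Gata3 was at 565 ± 25.7 and 565 ± 25.4. Lists for other cells were far lower, at 5.32 to 7.20 CPM for 5 B cell genes, 2.98 to 4.27 for 6 macrophage genes and 78.9 to 93.7 for 6 mast cell and basophil genes over both groups, and Pax5, Marco and Sftpc were at 0 counts in every library. The 6 epithelial, endothelial and fibroblast genes summed to 213 to 227 CPM, nearly all of it Pecam1. The 5 NK cell genes summed to 60.4 to 62.4 CPM with DMSO and 63.8 to 70.7 with Yoda1, without overlap, where Eomes (37.8 ± 1.82 and 43.8 ± 2.49 CPM) was the only call and Ncr1 and Klrb1c had lower means with Yoda1. The 7 T cell genes summed to 70.5 to 78.1 and 76.0 to 86.1, and the part of such cells in the clock gene results was not tested.

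The Period genes encode the PAS-domain proteins that carry the negative arm of the loop. Per1 lies on chromosome 11 (69095217 to 69109960, plus strand, in GRCm38), with 23 exons in its principal transcript. The 4 DMSO libraries held 49.2, 53.8, 51.2 and 52.5 normalised CPM of Per1, and the 4 Yoda1 libraries held 74.8, 76.0, 69.6 and 73.9. All Yoda1 libraries were high and close to each other, and the lowest of them lay well above the highest DMSO library. The means were 51.7 ± 1.98 and 73.6 ± 2.79 CPM (SD over 4 libraries each), or 0.51 as the log2 fold change (standard error, SE, 0.047, 95% interval of the fold 1.33 to 1.52, edgeR adjusted p = 3.21e-09; exact permutation p = 0.0286). The coefficient of variation of Per1 was 3.83% with DMSO and 3.80% with Yoda1, where counting error alone gives 3.52% and 3.02%. Over all alternatives the log2 fold change of Per1 ran from 0.48 to 0.54, and the call was kept in each.

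The 2 promoter windows that RefSeq annotation gives for Per1 are shown because this gene held the smallest p of the 10, together with the window of Per3, whose mRNA did not pass the test. Each window runs 5′ to 3′ from 250 bases before the annotated start to 50 bases after it in GRCm38.p6. Capitals mark matches, on either strand, to CACGTG (the E-box), TTATGTAA or TTACGTAA (D-boxes), AGGTCA (the core of ROR and REV-ERB elements) and TGACG (the core of the CREB element TGACGTCA, which contains it).
Per1, upstream start (chr11:69098699-69098998, plus strand): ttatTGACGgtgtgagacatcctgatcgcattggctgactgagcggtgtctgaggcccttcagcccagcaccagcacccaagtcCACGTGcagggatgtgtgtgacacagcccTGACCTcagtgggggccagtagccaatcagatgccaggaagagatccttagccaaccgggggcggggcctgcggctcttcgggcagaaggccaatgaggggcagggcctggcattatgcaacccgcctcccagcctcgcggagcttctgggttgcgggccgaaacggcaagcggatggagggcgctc
Per1, downstream start (chr11:69099902-69100201, plus strand): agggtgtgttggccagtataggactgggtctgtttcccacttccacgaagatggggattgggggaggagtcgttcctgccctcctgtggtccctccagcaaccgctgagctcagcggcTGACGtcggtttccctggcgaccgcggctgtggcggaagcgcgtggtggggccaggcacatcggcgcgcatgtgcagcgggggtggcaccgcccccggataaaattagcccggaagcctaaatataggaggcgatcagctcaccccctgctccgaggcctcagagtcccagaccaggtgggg
Per3 (chr4:151044616-151044915, minus strand): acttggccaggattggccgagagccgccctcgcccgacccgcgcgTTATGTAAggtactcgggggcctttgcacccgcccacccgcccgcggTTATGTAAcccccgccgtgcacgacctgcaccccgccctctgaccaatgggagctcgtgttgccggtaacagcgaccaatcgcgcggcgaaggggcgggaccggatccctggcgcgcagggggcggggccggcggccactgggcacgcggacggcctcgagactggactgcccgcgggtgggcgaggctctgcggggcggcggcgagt
The upstream window of Per1 held an E-box match at position -166 (the annotated start being +1), an AGGTCA match at -137 (TGACCT as printed, since it lies on the other strand) and a TGACG match at -246, and the downstream window held a TGACG match at -132. The Per3 window held 2 TTATGTAA matches, at -205 and -158. Among all 32851 promoter windows of that length, CACGTG was found in 7.15%, TTATGTAA in 0.938%, TTACGTAA in 0.119%, AGGTCA in 16.3%, TGACG in 20.8% and the full TGACGTCA in 1.79%. Of the 10 clock genes, 9 had a window, with 13 windows in all. Per2 had none, so its promoter was not searched. By these letters the E-box was found for Per1, Cry1 and Tef, the D-box for Per3, and AGGTCA for Per1, Clock and Nr1d2. TGACG was found for Per1, Cry1 and Cry2, and TGACGTCA for 0 of the 9. These are counts of genes, some with several windows, whereas the shares above are of windows. A match is a description of the letters and not a site of binding.

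Per2 and Per3, the paralogues of Per1, overlapped between the groups. Per2 (chromosome 1, 91415982 to 91459324, minus strand), which like Per1 answers to light and CREB in the central clock, was at 11.2, 12.9, 15.0 and 13.9 CPM with DMSO and at 15.4, 12.9, 16.0 and 13.0 with Yoda1. The Yoda1 values of Per2 fell among or just above the DMSO values, and its log2 fold change was 0.10 (SE 0.096, 95% interval of the fold 0.937 to 1.23, edgeR adjusted p = 0.556; exact permutation p = 0.371). Its coefficient of variation, 12.2% with DMSO and 11.4% with Yoda1, was above the counting error of 6.96% and 6.82%. Per3 (chromosome 4, 151003652 to 151044665, minus strand), the member of the family least needed for rhythm, was at 22.9 ± 0.939 CPM in the DMSO libraries and 21.5 ± 2.45 with Yoda1 (SD over 4 libraries each), or -0.088 as the log2 fold change (SE 0.075, 95% interval of the fold 0.846 to 1.05, edgeR adjusted p = 0.502). The Yoda1 libraries of Per3 were at 22.8, 23.0, 17.8 and 22.4 CPM, so replicate 3 alone was low, and without it the log2 fold change was -0.013. The interval of Per1, from 1.33-fold upward, lay above those of Per2 and Per3, but the within-library ratio of Per1 to Per2, given below, overlapped between the groups.

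**Figure D2:**
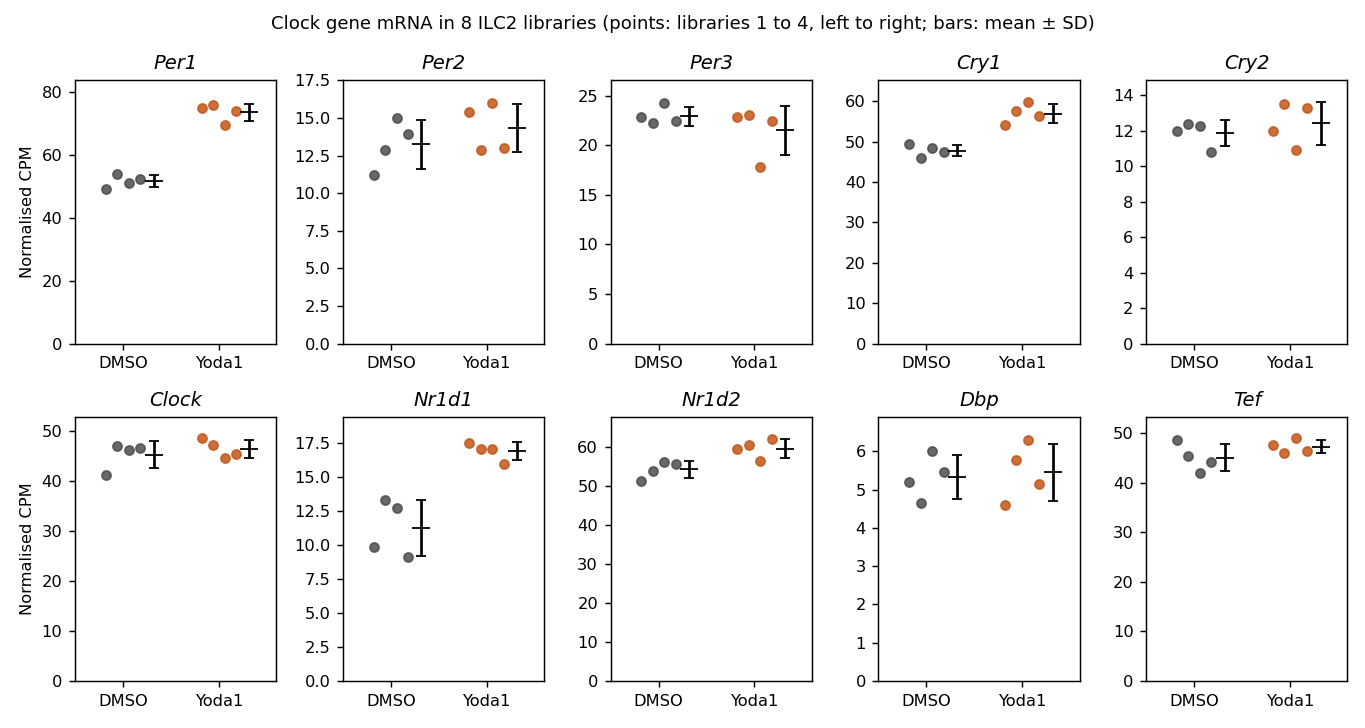
Each panel plots the normalised CPM of 1 clock gene in the 4 DMSO (grey) and 4 Yoda1 (orange) libraries, with replicates 1 to 4 from left to right, the mean and the SD beside them, and an axis from 0. Per1, Cry1, Nr1d1 and Nr1d2 have every Yoda1 point above every DMSO point, and the other 6 genes overlap.

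The cryptochromes are the flavoprotein relatives of photolyase that hold the strongest repressor activity of the loop. Cry1 lies on chromosome 10 (85131700 to 85185064, minus strand, 13 exons). Its DMSO libraries were at 49.3, 45.9, 48.5 and 47.5 CPM and its Yoda1 libraries at 54.1, 57.5, 59.8 and 56.3. All 4 Yoda1 values were above all 4 DMSO values, with Yoda1 replicate 1 nearest to them. The means were 47.8 ± 1.45 and 56.9 ± 2.39 CPM (SD over 4 libraries each), or 0.25 as the log2 fold change (SE 0.048, 95% interval of the fold 1.11 to 1.28, edgeR adjusted p = 0.000594; exact permutation p = 0.0286), and over all alternatives it ran from 0.22 to 0.27 with the call kept. Cry2 (chromosome 2, 92403646 to 92434043, minus strand) was at 11.9 ± 0.745 and 12.4 ± 1.20 CPM (SD over 4 libraries each). The groups overlapped for Cry2, whose log2 fold change was 0.068 (SE 0.090, 95% interval of the fold 0.923 to 1.19, edgeR adjusted p = 0.694; exact permutation p = 0.514). The intervals of Cry1 and Cry2 overlap. Exons of Cry2 share 295 bases with the opposite-strand transcript D930015M05Rik, which had 1 to 8 counts per library. The promoter window of Cry1 is shown, with the same marks, because it held both an E-box match, at -60, and a TGACG match, at -8.
Cry1 (chr10:85185005-85185304, minus strand): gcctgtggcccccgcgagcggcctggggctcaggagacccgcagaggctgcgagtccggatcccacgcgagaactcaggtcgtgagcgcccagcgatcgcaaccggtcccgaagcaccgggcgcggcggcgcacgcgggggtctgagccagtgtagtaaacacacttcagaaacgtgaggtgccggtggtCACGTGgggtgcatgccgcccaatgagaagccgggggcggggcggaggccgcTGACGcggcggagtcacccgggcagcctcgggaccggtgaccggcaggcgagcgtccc

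Clock encodes the histone acetyltransferase-like partner of BMAL1 and is known to vary little over the day. It lies on chromosome 5 (76209868 to 76304792, minus strand). Clock was at 41.2, 46.9, 46.2 and 46.6 CPM with DMSO and at 48.5, 47.2, 44.5 and 45.4 with Yoda1. DMSO replicate 1 was low, and the other 3 DMSO values lay within the range of the Yoda1 values. The log2 fold change was 0.036 (SE 0.053, 95% interval of the fold 0.951 to 1.11, edgeR adjusted p = 0.733; exact permutation p = 0.571), and it was -0.0067 without DMSO replicate 1.

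Nr1d1, which encodes REV-ERBα, showed the largest fold of the 10 genes. It lies on chromosome 11 (98767932 to 98775333, minus strand, 8 exons), and its DMSO libraries were at 9.89, 13.3, 12.7 and 9.16 CPM while its Yoda1 libraries were at 17.5, 17.1, 17.1 and 16.0. The Yoda1 libraries lay close together and above all DMSO libraries, and the DMSO libraries fell into a lower pair, replicates 1 and 4, and a higher pair, replicates 2 and 3. The means were 11.3 ± 2.03 and 16.9 ± 0.628 CPM (SD over 4 libraries each), or 0.57 as the log2 fold change (SE 0.097, 95% interval of the fold 1.30 to 1.71, edgeR adjusted p = 0.000139; exact permutation p = 0.0286). The coefficient of variation of Nr1d1 was 18.1% with DMSO, where counting error gives 7.67%, and 3.71% with Yoda1, where counting error gives 6.28%. Leaving out each library in turn, the log2 fold change ran from 0.49 without DMSO replicate 4 to 0.67 without DMSO replicate 2, and all 8 fits kept the call.

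Exons of Nr1d1 share 263 bases, of 3077 exonic bases in all, with Thra, the thyroid hormone receptor α gene on the opposite strand. Library preparation kept the strand, but the strand setting of the counting is not given in the sources used here, so reads of the shared stretch cannot be assigned. Thra was at 10.4 ± 1.42 CPM in the DMSO libraries and 13.1 ± 0.873 with Yoda1 (SD over 4 libraries each), or 0.32 as the log2 fold change (SE 0.096, edgeR adjusted p = 0.0303), which is a call lost with upper-quartile factors (adjusted p = 0.0507) and without DMSO replicate 2, 3 or 4 or Yoda1 replicate 1, 3 or 4 (adjusted p from 0.0590 to 0.111). The part of the shared stretch in the values of either gene was not tested. The promoter window of Nr1d1 is shown because this gene changed most, and it held 0 matches to the letters searched, so it has no capitals. Only the exact letters within this window were searched, so variant or more distant elements were not examined.
Nr1d1 (chr11:98775328-98775627, minus strand): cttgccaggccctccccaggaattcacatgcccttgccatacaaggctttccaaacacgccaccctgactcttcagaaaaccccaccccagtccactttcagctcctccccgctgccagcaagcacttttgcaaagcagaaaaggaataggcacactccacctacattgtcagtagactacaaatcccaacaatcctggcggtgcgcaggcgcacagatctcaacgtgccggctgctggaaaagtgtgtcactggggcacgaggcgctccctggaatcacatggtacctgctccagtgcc

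Nr1d2 encodes REV-ERBβ, which overlaps with REV-ERBα in repressing Arntl, and lies on chromosome 14 (18204054 to 18239127, minus strand). It was at 51.3, 53.8, 56.1 and 55.6 CPM with DMSO and at 59.4, 60.3, 56.2 and 62.0 with Yoda1. The groups did not overlap, although Yoda1 replicate 3 lay only just above DMSO replicate 3. The log2 fold change was 0.14 (SE 0.048, 95% interval of the fold 1.03 to 1.18, edgeR adjusted p = 0.0616; exact permutation p = 0.0286), so Nr1d2 missed the threshold, and it passed only without Yoda1 replicate 3 (adjusted p = 0.0361). The interval of Nr1d1 lay above that of Nr1d2, but their within-library ratio, given below, did not pass its adjustment.

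Dbp and Tef stand for the output arm, and neither passed the test. Dbp (chromosome 7, 45705088 to 45710203, plus strand), often the mRNA with the widest daily swing in liver, was the least counted of the 10, with 57 to 100 counts per library. It was at 5.33 ± 0.565 CPM in the DMSO libraries and 5.46 ± 0.740 with Yoda1 (SD over 4 libraries each), or 0.040 as the log2 fold change (SE 0.131, 95% interval of the fold 0.854 to 1.24, edgeR adjusted p = 0.891). At this depth a change of Dbp by the fold seen for Cry1 lies inside that interval, and one by the fold seen for Per1 or Nr1d1 lies outside it. Exons of Dbp share 539 bases with the opposite-strand gene Sphk2, which was at 32.2 ± 1.45 and 33.4 ± 2.70 CPM (SD over 4 libraries each; log2 fold change 0.049, edgeR adjusted p = 0.680). The part of that shared stretch in the values and interval of Dbp was not tested. Tef (chromosome 15, 81802421 to 81826863, plus strand) was at 45.1 ± 2.73 and 47.3 ± 1.35 CPM (SD over 4 libraries each), or 0.067 as the log2 fold change (SE 0.052, 95% interval of the fold 0.973 to 1.13, edgeR adjusted p = 0.458; exact permutation p = 0.200). Exons of Tef share 193 bases with the opposite-strand transcript Gm17597, whose values were not analysed here.

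Within a library, the ratio of 2 related genes does not depend on how the library is scaled, and 6 such ratios were compared. The Per1 to Per3 count ratio was 2.15, 2.42, 2.11 and 2.35 in the DMSO libraries and 3.28, 3.31, 3.90 and 3.30 in the Yoda1 libraries, a 1.53-fold shift without overlap (log2 difference 0.61, SE 0.077). The Nr1d1 to Nr1d2 ratio was 0.193, 0.247, 0.226 and 0.165 with DMSO and 0.295, 0.284, 0.304 and 0.259 with Yoda1, a 1.39-fold shift, also without overlap (log2 difference 0.47, SE 0.138). Both had an exact permutation p of 0.0286, the smallest possible, and a Benjamini-Hochberg value of 0.0857 over the 6 ratios, so neither passed that adjustment. The Per1 to Per2 ratio ran from 3.41 to 4.39 with DMSO and from 4.34 to 5.89 with Yoda1 and overlapped slightly (1.32-fold, exact permutation p = 0.0571, adjusted 0.114). By this ratio a different response of Per1 and Per2 was not shown. For Cry1 to Cry2 the ranges were 3.69 to 4.40 and 4.24 to 5.50 (1.14-fold, exact permutation p = 0.0857, adjusted 0.129), and a different response of the 2 cryptochromes was therefore not shown. The ratios of Per2 to Per3 (1.16-fold, exact permutation p = 0.343, adjusted 0.411) and Dbp to Tef (0.971-fold, exact permutation p = 0.743, adjusted 0.743) overlapped broadly.

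**Figure D3:**
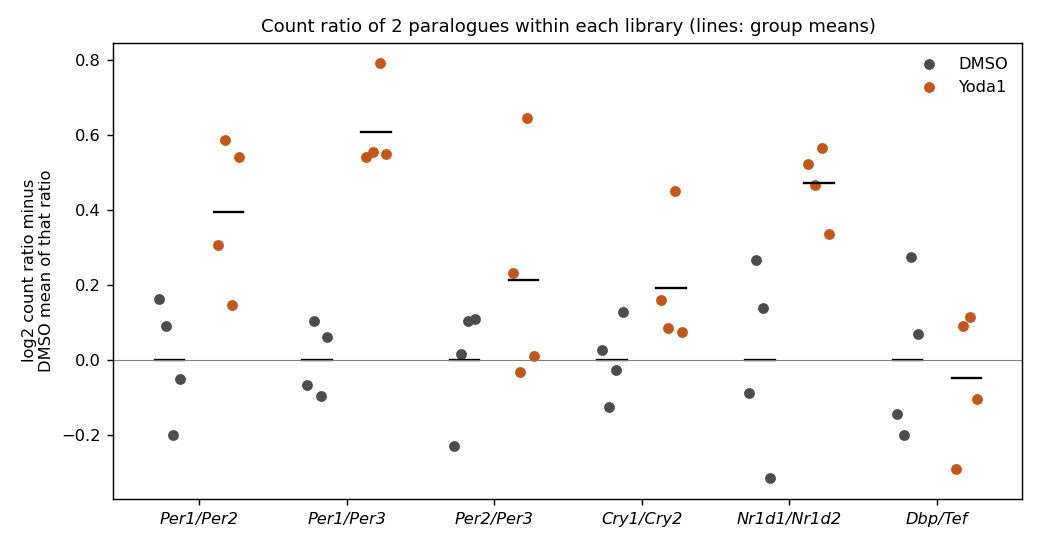
The log2 ratio of the counts of 2 related clock genes in each library, minus the DMSO mean of that ratio, is plotted for 6 pairs in DMSO (grey) and Yoda1 (orange) libraries, with lines at the group means. Per1/Per3 and Nr1d1/Nr1d2 have all Yoda1 points above all DMSO points, and Dbp/Tef lies around 0 in both groups.

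Per length of the principal transcript, Cry1 was the most abundant of the 10 clock mRNAs in the DMSO libraries, at 15.8 ± 0.479 CPM per kb (SD, n = 4). Nr1d2 (11.6 ± 0.466), Per1 (11.1 ± 0.424) and Tef (10.2 ± 0.620 CPM per kb) followed, and each neighbouring pair of these overlapped over the libraries. Clock (4.64 ± 0.276), Nr1d1 (4.14 ± 0.748) and Per3 (3.82 ± 0.157 CPM per kb) formed the next level, again with overlap between neighbours. Cry2 (2.99 ± 0.187), Dbp (2.90 ± 0.307) and Per2 (2.27 ± 0.278 CPM per kb) were lowest, and neighbours in that order overlapped as well. In the Yoda1 libraries Per1 reached 15.7 ± 0.598 CPM per kb, above Nr1d2 at 12.8 ± 0.517 without overlap, and Nr1d1 reached 6.23 ± 0.231, above Clock at 4.76 ± 0.187 without overlap. These levels rest on 1 transcript per gene, of 9744 bases for Clock and 1837 for Dbp, and the transcripts that these cells use were not analysed here.

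**Figure D4:**
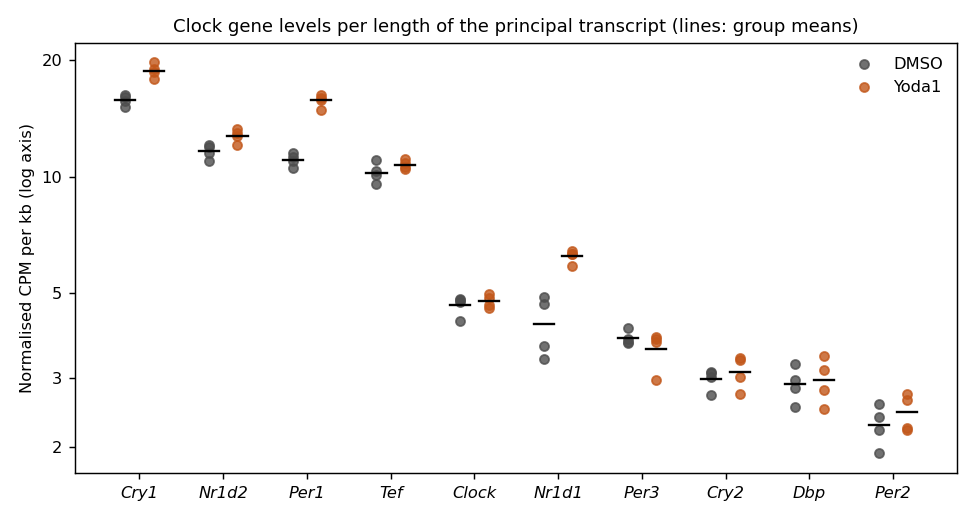
Normalised CPM per kb of the principal transcript is plotted on a log axis for each clock gene in the 4 DMSO (grey) and 4 Yoda1 (orange) libraries, ordered by the DMSO mean, with lines at the group means. Cry1 leads at 15.8 with DMSO, and Per1 passes Nr1d2 and Nr1d1 passes Clock with Yoda1.

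Among other genes of the loop, Bhlhe40 and Arntl were called higher and Timeless lower. Of 12 further loop genes, 10 were tested, 2 were called higher and 1 lower, against the 10.9% called among all genes, with a median log2 fold change of 0.053. Arntl, which encodes BMAL1, was at 33.4 ± 1.09 CPM in the DMSO libraries and 38.1 ± 2.72 with Yoda1 (SD over 4 libraries each), or 0.18 as the log2 fold change (SE 0.059, edgeR adjusted p = 0.0411), with Yoda1 replicate 4, at 34.8 CPM, inside the DMSO range. That call of Arntl was lost with DESeq2, limma-voom, library totals, upper-quartile factors and a replicate block (adjusted p from 0.0587 to 0.0911), and without DMSO replicate 1, 2 or 4 or Yoda1 replicate 1, 2 or 3 (adjusted p from 0.0639 to 0.159). Bhlhe40, which encodes the E-box repressor DEC1, rose from 524 ± 22.3 to 586 ± 9.73 CPM (SD over 4 libraries each), or 0.16 as the log2 fold change (SE 0.036, edgeR adjusted p = 0.00295), and kept its call under every alternative. Timeless, whose product also travels with the replication fork, was lower, at 26.7 ± 1.28 and 21.6 ± 1.95 CPM (SD over 4 libraries each), or -0.31 as the log2 fold change (SE 0.070, edgeR adjusted p = 0.00304). Rora was among the most abundant genes of these cells, at 590 ± 32.4 and 604 ± 46.0 CPM (SD over 4 libraries each; log2 fold change 0.034, edgeR adjusted p = 0.726). Nfil3, a D-box repressor needed for innate lymphoid cells, was at 80.2 ± 0.413 and 86.2 ± 4.50 CPM without overlap (log2 fold change 0.10, edgeR adjusted p = 0.136), and Npas2, the paralogue of Clock, was at 4.61 ± 0.691 and 3.69 ± 0.616 CPM (log2 fold change -0.34, edgeR adjusted p = 0.169). Bhlhe41 (4 to 11 counts per library) and Rorb (0 to 4) were not tested.

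The next lists hold genes for proteins that modify, degrade or work with clock proteins, and their counts stand beside the 10.9% called among all genes. Of 15 kinases, ubiquitin ligases and related modifiers, 1 was called, Fbxw11, a ligase subunit for PER proteins, with 0.13 as the log2 fold change (SE 0.041, edgeR adjusted p = 0.0465), and that call was lost under 13 of the 15 alternatives (adjusted p over all 15 from 0.0422 to 0.133), and the omission of any library but Yoda1 replicate 4 removed it. Of 12 corepressors and complex partners, 0 were called by edgeR, by DESeq2 or by limma-voom. An unadjusted p under 0.05 in the edgeR fit was held by 1 of these 12, against 3093 of all 12239 genes tested. Usp2, a deubiquitinase that the clock also drives, was at 1.98 ± 0.425 and 2.64 ± 0.711 CPM (21 to 50 counts per library, edgeR adjusted p = 0.214). The medians of these lists were 0.025 and 0.012 on the log2 scale.

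Among the genes that carry signals into the clock, Crem rose. Crem, whose inducible form ICER represses CREB targets, went from 156 ± 6.78 to 187 ± 5.67 CPM (SD over 4 libraries each), or 0.26 as the log2 fold change (SE 0.039, edgeR adjusted p = 2.72e-05), and was the only call among 9 input genes, against 10.9% of all genes, with a median log2 fold change of 0.059 for the list. Creb1, Crtc1, Crtc2, Crtc3, Sik1, Nr3c1, Srf and Hsf1 had log2 fold changes between -0.10 and 0.12, and none was called. Of these only Sik1 (60.0 ± 2.73 and 64.9 ± 1.35 CPM, edgeR adjusted p = 0.115), a kinase that limits CREB coactivators, did not overlap between the groups. Among all genes tested, 8.44% lay higher and 7.05% lower without overlap. Of 7 genes known as clock outputs, with a median log2 fold change of 0.068, 2 fell, against 4.84% of all genes called lower, and both are also known glucocorticoid receptor targets, as Per1 is. Tsc22d3, which encodes GILZ, was at 49.8, 56.1, 54.1 and 51.1 CPM with DMSO and at 44.6, 44.0, 49.7 and 42.3 with Yoda1, or -0.23 as the log2 fold change (SE 0.055, edgeR adjusted p = 0.00479). Fkbp5, which encodes a cochaperone of that receptor, was at 155 ± 5.12 and 138 ± 3.64 CPM (SD over 4 libraries each), or -0.17 as the log2 fold change (SE 0.038, edgeR adjusted p = 0.00389). In both the DMSO libraries were high and the Yoda1 libraries low without overlap, while Per1 was higher with Yoda1. The part of that receptor in any of these values was not tested. The remaining outputs Usp2, Tspan4, Wee1, Nampt and Cdkn1a were not called, although Cdkn1a did not overlap between the groups (584 ± 2.34 and 613 ± 20.9 CPM, edgeR adjusted p = 0.214).

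**Figure D5:**
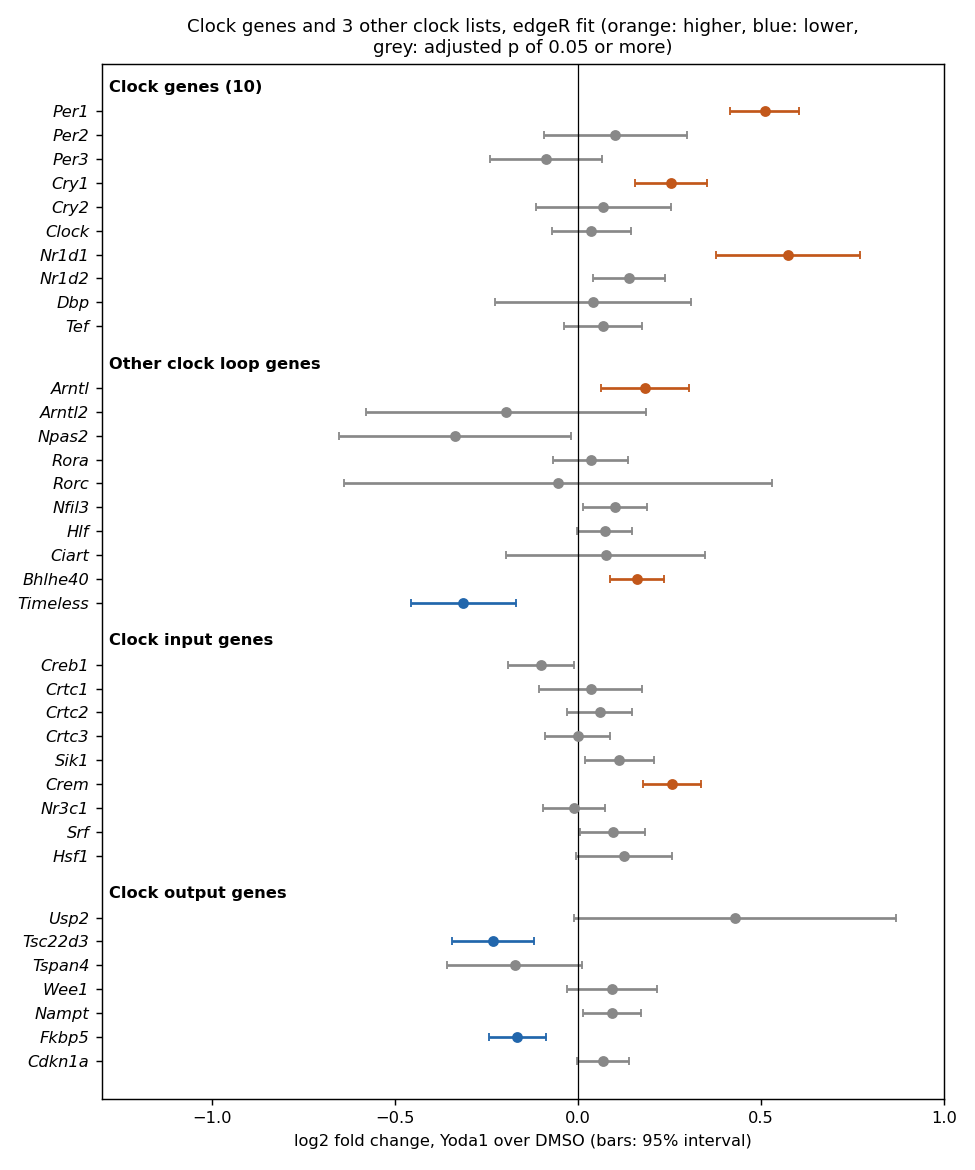
The log2 fold change of Yoda1 over DMSO, with its 95% interval, is plotted for the 10 clock genes and for the tested members of the other loop, input and output lists, coloured orange where called higher, blue where called lower and grey otherwise. The intervals of Per1 and Nr1d1 lie wholly to the right of those of Per2, Per3, Cry2, Clock, Nr1d2, Dbp and Tef. The intervals of Timeless, Tsc22d3 and Fkbp5, called lower, lie to the left of 0, as do those of Npas2 and Creb1, which were not called.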

How the data were processed

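Poly(A)-selected RNA of 8 libraries, 4 per group, was sequenced after directional library preparation. The values deposited by the authors are raw counts for each gene symbol, and the submitters' processing notes name TopHat and mm10, whereas the published methods list BBMap and Cufflinks after trimming. Versions, the counting step and its strand setting are not given in the sources used here. Genes passing edgeR's filterByExpr (minimum count 10, minimum total 15) were scaled by TMM (factors 0.988 to 1.01) and tested with the robust quasi-likelihood F-test of edgeR 4.0.16 (R 4.3.3), and p-values were adjusted by Benjamini-Hochberg over the whole table. Standard errors are the log2 fold change divided by the root of F. Other fits used DESeq2 1.42.0, limma 3.58.1 (voom), library totals, upper-quartile factors, no filter, at least 10 counts in every library, a block for the replicate number, and the omission of each library in turn. Ratios were compared by two-sided exact permutation tests. The fits were also run on simulated data, with the outcome not given here, and changes as small as that of Cry1 were not simulated. Gene positions came from GENCODE M21 (GRCm38, the assembly of mm10) and promoters from RefSeq (GRCm38.p6). All 10 genes, every called gene of the other clock lists, 6 loop genes and the exon-sharing neighbours are named, and Usp2, Sik1 and Cdkn1a were added after their values were seen. The other input and output genes complete their lists, and Creb1, Rorb and the single marker genes were also named with their values known. The values of 1 further gene are not reported here. The genes and lists were chosen with earlier results of these data known. Replicates differed by more than counting noise (chi-square per gene 2.04 to 6.94). Intervals rest on the spread between libraries, with the variance of each gene drawn by the edgeR fit towards that of other genes. For a gene with widely spread libraries, such as Nr1d1 with DMSO, an interval can therefore be narrower than its own libraries would give.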

Additional observations from a re-analysis of the deposited data

Results flagged for a closer look

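Groups of 4 libraries were examined for the clock genes, the named loop genes other than Rorb, the called genes of the other clock lists and the ratios. In 5 of these 54 groups the highest or lowest library stood apart from the other 3 by the 95% limit of Dixon's test. Chance alone gives about 2.7. Yoda1 replicate 3 was low for Per3 (17.8 CPM, the next library 22.4) and high for the Per1/Per3 ratio (3.90, the next 3.31), and these are not independent. DMSO replicate 1 was low for Clock (41.2 CPM, the next 46.2) and for Rora (542 CPM, the next 600). DMSO replicate 3 was high for Timeless (28.6 CPM, the next 26.1). Without Yoda1 replicate 3 the log2 difference of the Per1/Per3 ratio was 0.55 against 0.61 with it.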

How the results depend on the processing

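Per1, Cry1 and Nr1d1 kept their calls and direction under all 15 alternatives, and the number of clock genes called was 3 in 14 of them and 4 without Yoda1 replicate 3, where Nr1d2 passed. Leaving out each library gave 2 to 3 calls among the other loop genes, 1 among the input genes and 2 among the output genes. Among the kinases and ligases the count was 0 with DESeq2, limma-voom, library totals, upper-quartile factors, no filter and the replicate block, and 0 to 2 with a library left out. Among the corepressors it was 1 with library totals, upper-quartile factors and no filter, and 0 to 1 with a library left out, and among the input genes it was 2 with upper-quartile factors, where Creb1 was called lower. The log2 fold change changed sign for Clock without DMSO replicate 1 (-0.0067, against at most 0.056 without another library) and for Dbp without DMSO replicate 2 (-0.027) or Yoda1 replicate 3 (-0.025, against at most 0.10 without another library), and none of these was called. The cause was not tested.

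Deviations of same-numbered samples correlated at -0.028 to 0.071, and those of other-numbered samples at -0.125 to 0.077, so no pairing was seen. Counting noise lowers such correlations, and whether same-numbered samples share an origin is not given in the sources used here. Under a block for the replicate number the calls among the 10 clock genes were the same 3 (Per1 0.51, Cry1 0.25 and Nr1d1 0.59 on the log2 scale). The block leaves the mean ratio differences at 0.61 for Per1/Per3 and 0.47 for Nr1d1/Nr1d2, and its exact test cannot go below 0.125 with 4 pairs. Leaving out a library moved the log2 ratio differences to 0.33 to 0.48 for Per1/Per2, 0.55 to 0.64 for Per1/Per3, 0.070 to 0.30 for Per2/Per3, 0.11 to 0.24 for Cry1/Cry2, 0.37 to 0.56 for Nr1d1/Nr1d2 and -0.11 to 0.051 for Dbp/Tef. Depth limits Dbp most, at 57 to 100 counts per library.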
